A study of Mus musculus with 24 samples.

Results

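The loss of BAF180 was compared across 4 states of mouse CD4+ T cells, in order to find the genes that differ between the genotypes in the same direction in Naïve and in Th2 cells, both at rest and after stimulation. All 24 of the 24 arrays of the study were used, 12 from WT and 12 from BAF180-deficient cells, and every array belonged to the comparison by its labels alone. For each probe the 4 arrays of a mouse were averaged on the log2 scale, a mouse being a genotype with a replicate letter (A, B or C), and the 3 BAF180-deficient mice were set against the 3 WT mice. The value reported below as the average difference is BAF180-deficient minus WT, in log2 units of normalized intensity.

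The labels give all mice as Balb/c of 4 to 6 weeks, while the methods of the study describe a mixed B6-129 background. In the BAF180-deficient mice exon 11 of the gene was flanked by loxP sites and removed by Cre recombinase under the CD4 promoter, which is active in T cells from their development in the thymus. CD4+CD62L+ cells were purified from spleen and lymph nodes to 95% and served as resting Naïve cells. Stimulated Naïve cells were treated with antibodies to CD3 (1 µg/ml) and CD28 (2 µg/ml) for 24 h. Th2 cells of both genotypes were grown from Naïve cells on plates coated with the same antibodies at the same doses, with 10 ng/ml IL-4, 10 µg/ml anti-IFN-gamma and 100 U/ml IL-2. For stimulation, Th2 cells then received 50 ng/ml PMA with 500 ng/ml ionomycin for 1.5 h. The legend of the study counts 3 pairs of mice, but nothing says that a letter marks the same animal in each state or a WT mouse and its partner, so that p-values measure the spread between these samples.

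BAF180, encoded by Pbrm1, is the bromodomain subunit that defines PBAF, a form of the SWI/SNF chromatin remodeling complex. SWI/SNF complexes use ATP to move nucleosomes, and PBAF shares its BRG1 motor and a core of subunits with the related BAF complex. T cells use these complexes to open and close genes as they leave the naive state and acquire the cytokines of a helper fate.

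Between 8047 and 10689 probes were detected on an array. After a filter that kept a probe detected on at least 1 array, 14246 of 25697 probes remained, standing for 10419 genes. All 7 CD4 T cell markers were detected on all 24 arrays, and the Th2 cytokines Il5 and Il13 were not detected on any resting Naïve array. The BAF180-deficient mouse C stood apart from the other 5 mice in its sex genes. Xist, expressed from the inactive X chromosome of females, had an intensity of 323 to 744 on its 4 arrays and of 35.9 to 51.2 on the other 20. Ddx3y, on the Y chromosome, had 65.9 to 78.4 on its arrays and 259 to 781 on the others. Results that rest on this mouse are therefore also given without it. In RNA of whole samples, fewer cells of a type and less RNA per cell cannot be told apart.

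The deletion was read by 3 overlapping probes for Pbrm1, which the table lists under the older symbol 2610016F04Rik on chromosome 14. They are shown because the probe sequence decides which piece of the transcript is read. On the transcript entry of the array annotation they cover bases 2024 to 2073, 2025 to 2074 and 2060 to 2109, in that order, and the capitals mark the 14 bases that all of them share:
ILMN_1225027: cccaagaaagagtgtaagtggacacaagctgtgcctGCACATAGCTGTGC
ILMN_2667709: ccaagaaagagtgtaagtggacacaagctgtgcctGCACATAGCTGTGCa
ILMN_2732190: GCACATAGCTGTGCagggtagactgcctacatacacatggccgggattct
The first pair overlaps by 49 bases and is nearly a repeated measurement. Whether the stretch lies in the removed exon was not examined, since exon positions were not used here.

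Pbrm1 was lower in BAF180-deficient cells in every state. By the brightest probe, ILMN_2732190, the mouse means were 8.52, 8.67 and 8.61 in WT mice A, B and C and 6.99, 7.12 and 7.25 in BAF180-deficient mice A, B and C, a difference of -1.48 ± 0.090 (SE, 3 mice per genotype), or 2.79-fold, with an adjusted p = 0.00534 (limma, Benjamini-Hochberg). In resting Naïve cells the WT arrays gave 8.20, 8.72 and 8.69 and the BAF180-deficient arrays 7.88, 7.28 and 7.42. In stimulated Naïve cells the values were 8.29, 8.76 and 8.67 against 6.36, 7.06 and 7.41. The genotypes did not overlap in either Naïve state, and resting Naïve cells had the smallest of the 4 differences, -1.01. In resting Th2 cells the arrays gave 9.06, 9.06 and 8.88 against 7.16, 7.23 and 7.02, a difference of -1.86. In stimulated Th2 cells they gave 8.52, 8.14 and 8.21 against 6.56, 6.91 and 7.15, a difference of -1.42. The probe remained detected on all 24 arrays, including the 12 of BAF180-deficient cells. ILMN_2667709 differed by -0.65. ILMN_1225027 differed by -0.52 and was detected on 8 WT arrays and on none of the BAF180-deficient arrays, so that WT was at least 1.12-fold higher, taking on each BAF180-deficient array the higher of the probe's own value and the lowest detected signal. All 3 probes shared the direction, although they are not independent of each other.

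A probe was called when it met the 4 criteria of the study's methods. These were a Z-ratio beyond 1.5, a false discovery rate below 0.3, a p below 0.05 and a signal above 0. The Z-ratio expresses a difference in SDs of such differences over the probes, and 1.5 corresponded to 0.21 log2 units. Every probe had a signal above 0 after background correction, so that criterion excluded none. The Pbrm1 probe ILMN_2732190 was the 1 probe called in the average, 0.00702% of the 14246 tested. The next adjusted p was 0.308, shared by 9 probes just outside the limit, and no other probe reached a limit of 0.05. Before adjustment a p below 0.05 (limma) was found for 767 of the 14246 probes, with BAF180-deficient cells above WT for 396 and below it for 371. With no difference at all, a share of about 0.05 of probes would meet this limit, so the count alone shows no difference. When the replicate letter was added as a block, so that WT and BAF180-deficient mice of the same letter were compared in pairs, 475 probes for 437 genes were called, 220 genes higher and 217 lower. Of these probes 374 (78.7%) had the same sign in all 4 states, a share that calling them on the average of those states raises by itself. Only 3 had an adjusted p below 0.05 in that fit (limma with the letter as a block), those of Pbrm1, Ly6c1 and Hsd17b11. Read by the brightest probe of each gene, the paired comparison called 1.97% of genes as higher and 1.78% as lower.

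Sharing a sign across the 4 states was common. It held for 2958 (20.8%) of all probes. Of the 10419 genes, 11.3% were higher and 10.2% lower in BAF180-deficient cells in each state, 3.18% were higher and 2.68% lower with an unadjusted p below 0.05, and the mouse means of the genotypes did not overlap for 9.86% of probes. The test of whether the difference varies between the 4 states, an interaction in limma, gave 0 probes with an adjusted p below 0.05 (the lowest was 0.231) and 292 without adjustment. Interaction fits that left out the mouse term, used Z-scores or kept every probe likewise gave 0. A p that misses the threshold does not show that the differences were alike.

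The genes with the firmest differences shared by the states were, for 10 in each direction, those with the same sign in every state, mouse means that did not overlap and the lowest unadjusted p. Their separation was used to choose them and is a description. The paired comparison used the same mouse means, so its calls of these genes are a description too. Beside Pbrm1 none of these 20 genes was called in the average, with adjusted p-values from 0.308 to 0.378 (limma), and all 20 were called in the paired comparison, with adjusted p-values from 0.00434 to 0.175 (limma with the letter as a block). Their fold differences were between 1.31 and 2.84. Of the 20, 11 were detected on all 24 arrays, and without BAF180-deficient mouse C 8 were called. The interaction test gave 3 of them an unadjusted p below 0.05 (Aldh5a1, Car11 and Hsd17b11), with 0.731 as the lowest adjusted p of the 20 (limma).

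**Figure D1:**
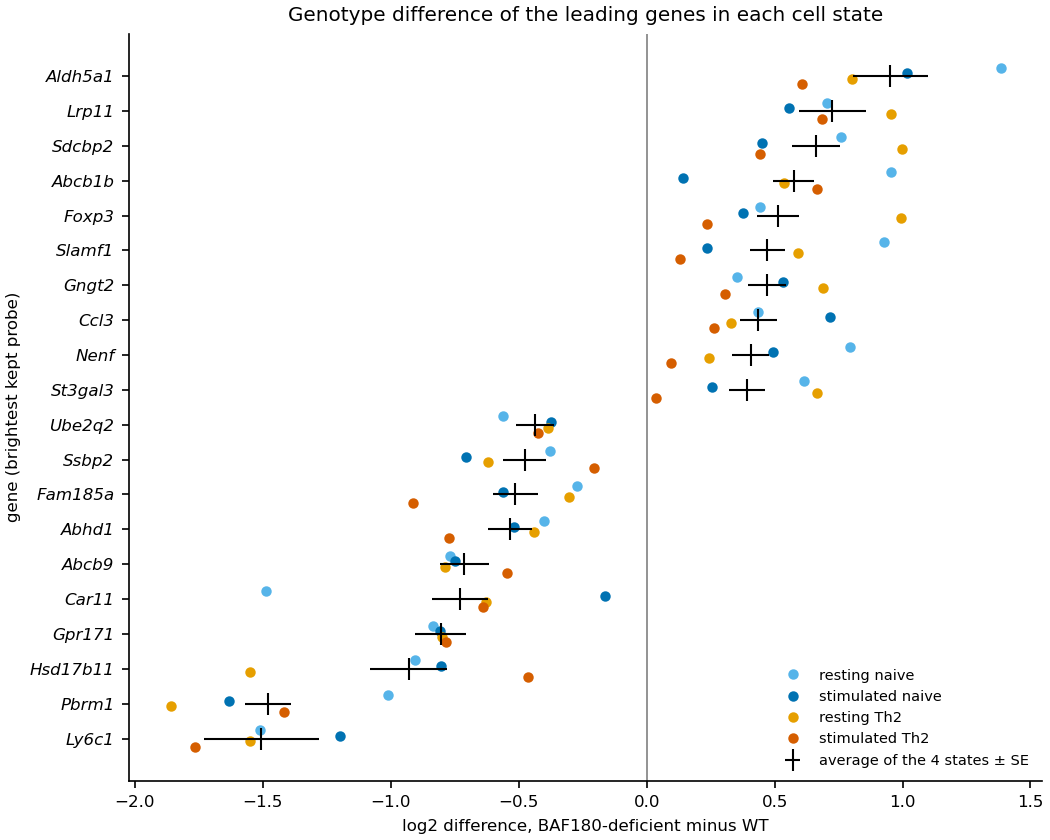
Average difference (black, ± SE of 3 mice per genotype) and the difference in each state (coloured points) for the 20 leading genes, as BAF180-deficient minus WT log2 intensity. Each point lies on the same side of 0 as its average, Ly6c1 and Pbrm1 lie farthest to the left and Aldh5a1, at 0.95, farthest to the right.

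Among the lower genes was Ly6c1, a GPI-anchored surface protein of lymphocytes and monocytes. Its mouse means were 7.43, 7.77 and 8.26 in WT mice A, B and C and 6.10, 6.20 and 6.65 in BAF180-deficient mice A, B and C, a difference of -1.51 ± 0.23 (SE), with an adjusted p of 0.308 unpaired and 0.00434 paired (limma). Mouse C was the highest of each genotype and A the lowest, and the difference was between -1.20 and -1.76 in the 4 states. Single arrays were less even. In resting Th2 cells the WT arrays gave 8.13, 7.43 and 8.76 and the BAF180-deficient arrays 7.48, 5.62 and 6.57, which overlap. The table lists the probe as Ly6c, and signal from Ly6c1 and from the near-identical Ly6c2 may not be told apart.

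Gpr171, a G protein-coupled receptor, had the most even differences over the states among the 20 leading genes. Its mouse means were 8.38, 8.46 and 8.28 in WT and 7.38, 7.62 and 7.68 in BAF180-deficient mice, a difference of -0.81 ± 0.10 (SE) that ranged only from -0.78 to -0.83 between states (adjusted p = 0.308, paired 0.108, limma). The arrays of the genotypes did not overlap in either Th2 state. They did in both Naïve states, where for example the resting WT arrays gave 8.598, 8.16 and 7.78 and the BAF180-deficient arrays 7.37, 7.83 and 6.84.

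Hsd17b11, a hydroxysteroid dehydrogenase of lipid droplets listed in the table as Dhrs8, had mouse means of 5.93, 6.07 and 6.38 in WT and of 5.10, 5.03 and 5.45 in BAF180-deficient mice. The difference was -0.93 ± 0.15 (SE; adjusted p = 0.342, paired 0.0338, limma), with -1.55 in resting and -0.46 in stimulated Th2 cells. It was detected on 11 WT and 7 BAF180-deficient arrays. BAF180-deficient mice A and B were not above background in either Th2 state, so the true sizes there are not known. Again mouse C was the highest of each genotype.

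Car11, a carbonic anhydrase-related protein without catalytic activity, was detected on 8 WT arrays and 1 BAF180-deficient array, with mouse means of 5.03, 5.19 and 4.90 against 4.24, 4.49 and 4.21. Its difference of -0.73 ± 0.11 (SE) is thus set against values that were nearly all not above background, and its true size is not known. It was not detected on any stimulated Naïve array, so that its differences in single states cannot be compared. The remaining 4 lower genes were Abhd1, an alpha/beta hydrolase-fold protein, at -0.53, Ube2q2, a ubiquitin-conjugating enzyme, at -0.44, Fam185a at -0.51 and Ssbp2, a single-stranded DNA-binding protein, at -0.48. In each of these 4 genes every BAF180-deficient mouse lay below every WT mouse, by the rule that chose them. Abhd1 was detected on 12 WT and 9 BAF180-deficient arrays, with a mean of 4.69 in BAF180-deficient mice, near background, so its true size is not known. Ssbp2 was detected on 11 WT and 10 BAF180-deficient arrays.

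Aldh5a1, the mitochondrial succinate semialdehyde dehydrogenase, had the largest difference of the 10 higher genes. Its mouse means were 5.23, 5.45 and 5.54 in WT mice A, B and C and 6.66, 6.29 and 6.13 in BAF180-deficient mice A, B and C, a difference of 0.95 ± 0.15 (SE; adjusted p = 0.317, paired 0.175, limma). The resting Naïve arrays gave 4.92, 5.48 and 5.66 in WT and 7.15, 6.46 and 6.61 in BAF180-deficient cells. The stimulated Th2 arrays gave 4.98, 5.23 and 5.26 against 5.97, 5.77 and 5.54. No array of one genotype overlapped the other in any state, and the difference went from 1.38 in resting Naïve to 0.61 in stimulated Th2 cells.

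Slamf1, a co-stimulatory receptor of the SLAM family, had mouse means of 8.31, 8.25 and 8.32 in WT and of 8.74, 8.80 and 8.76 in BAF180-deficient mice, a difference of 0.47 ± 0.068 (SE). The 3 mice of a genotype lay close together, but the difference was 0.93 in resting Naïve and 0.13 in stimulated Th2 cells, where the arrays overlapped. Gngt2, a G protein gamma subunit, was higher by 0.47, Lrp11, of the LDL receptor-related family, by 0.73, and Sdcbp2, the PDZ scaffold syntenin-2, by 0.66. Lrp11 was detected on 6 WT and 11 BAF180-deficient arrays, with a mean of 4.88 in WT mice, near background, so its true size is not known. Gngt2 and Sdcbp2 were detected on all 24.

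Abcb1b, a drug efflux pump, had mouse means of 6.22, 6.32 and 6.16 in WT and of 6.75, 6.78 and 6.90 in BAF180-deficient mice, a difference of 0.57 ± 0.081 (SE). It was higher by 0.96 in resting and by 0.14 in stimulated Naïve cells. Ccl3, a chemokine that recruits leukocytes, was higher by 0.44, but its arrays overlapped in each of the 4 states. In resting Th2 cells they gave 4.77, 5.21 and 5.21 in WT and 4.97, 4.90 and 6.33 in BAF180-deficient cells. Nenf, the secreted protein neudesin, was higher by 0.41 and St3gal3, a sialyltransferase, by 0.39. In stimulated Th2 cells these 2 differed by only 0.094 and 0.038. St3gal3 was detected on 10 WT and 10 BAF180-deficient arrays, and Nenf on 10 and 11. The other probe of St3gal3 differed by -0.016, so that this gene rests on 1 of 2 probes.

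Foxp3, the transcription factor of regulatory T cells, was also among the 10. Its mouse means were 7.001, 6.99 and 6.80 in WT mice A, B and C and 7.50, 7.45 and 7.38 in BAF180-deficient mice A, B and C, a difference of 0.51 ± 0.084 (SE; adjusted p = 0.348, paired 0.146, limma). In resting Th2 cells the arrays gave 5.79, 5.75 and 6.15 in WT and 6.55, 6.78 and 7.34 in BAF180-deficient cells and did not overlap. In the other 3 states they overlapped, with resting Naïve arrays at 8.999, 9.05 and 8.43 against 9.44, 9.43 and 8.93. The 3 probes for Foxp3 shared the direction, with differences from 0.12 to 0.51.

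**Figure D2:**
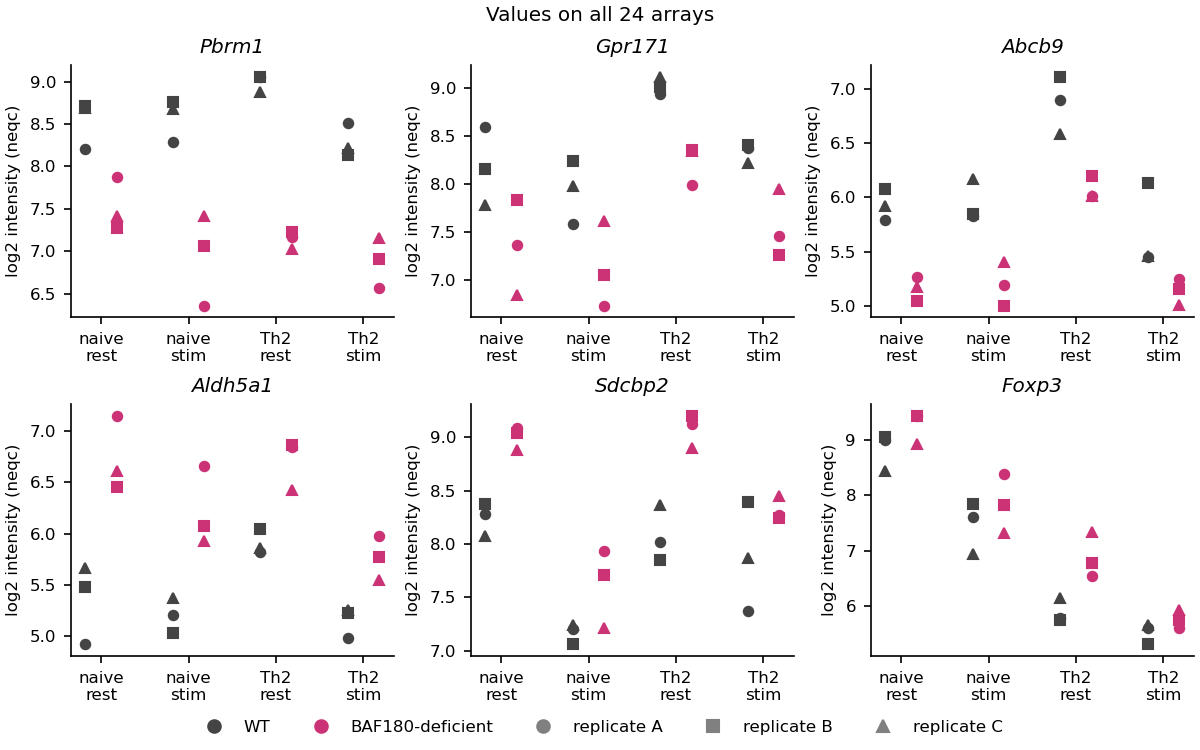
Normalized log2 intensity on all 24 arrays for 3 lower genes (top) and 3 higher genes (bottom), by cell state, with WT in grey, BAF180-deficient in magenta and the replicate letter as the symbol. Pbrm1, Abcb9 and Aldh5a1 keep the genotypes apart in all 4 states, whereas the arrays of Gpr171, Sdcbp2 and Foxp3 overlap in at least 1 state.

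A stricter reading asked for arrays that did not overlap in any of the 4 states, in the same direction. This held for 6 probes of 14246 (0.0421%), 3 lower and 3 higher, and for 42 more in exactly 3 states. Pbrm1, Abcb9 and Aldh5a1 were among the leading genes. Abcb9, a peptide transporter of the lysosome, had mouse means of 5.99, 6.29 and 6.04 in WT and of 5.43, 5.35 and 5.40 in BAF180-deficient mice, a difference of -0.71 ± 0.095 (SE; adjusted p = 0.308, paired 0.139, limma) that lay between -0.55 and -0.79 in the states. All 3 probes for Abcb9 shared the direction, with differences from -0.71 to -0.16. The other 3 genes are named because their probes make up the rest of the count of 6. Hjurp, the chaperone that deposits the centromeric histone, was higher by 0.63 ± 0.12 (SE), with 7.58, 7.84 and 8.01 in WT and 8.37, 8.49 and 8.46 in BAF180-deficient mice (adjusted p = 0.378, paired 0.146, limma). Adam17, the metalloprotease that sheds TNF and other surface proteins, was higher by 0.48 ± 0.11 (SE; adjusted p = 0.559, paired 0.236, limma), and Osbpl2, an oxysterol-binding protein, was lower by 0.46, with an adjusted p of 0.468 and a paired one of 0.212 (limma). For these 3 genes the difference without BAF180-deficient mouse C was 0.62, 0.46 and -0.51, close to that with it.

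None of the 18 other SWI/SNF subunits that passed the detection filter was called in the average. They include subunits of BAF that are not part of PBAF, such as Smarca2 (Brm). Dpf1, Ss18l1 and Bicra were each detected on at most 2 arrays of a genotype, so that little can be read for them. Smarcc1 (BAF155), a core subunit, differed by -0.42 ± 0.12 (SE), with mouse means of 6.31, 6.00 and 6.15 in WT and of 5.86, 5.80 and 5.55 in BAF180-deficient mice and the same sign in every state. Its adjusted p was 0.692 in the average and 0.235 in the paired comparison (limma), which called it as the only one of the 18, while its other probe differed by -0.0048. Smarca4 (BRG1), the ATPase, differed by 0.092, Arid2, another PBAF subunit, by -0.016 and Smarcb1 by 0.030. The other SWI/SNF members lay between -0.13 (Ss18) and 0.19 (Smarcc2).

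Genes that mark naive T cells were mostly lower in BAF180-deficient cells. Of 28 genes listed, 27 passed the detection filter, 23 of which were lower on average, 10 (37%) were lower in every state and none was higher in every state. Without adjustment 8 (29.6%) were lower with a p below 0.05, none was called, and 4 were called as lower in the paired comparison. Over all genes, 51.9% were higher, with a median difference of 0.0040, while the median of the list was -0.14. By state the median was -0.100 in resting Naïve, -0.17 in stimulated Naïve, -0.34 in resting Th2 and -0.083 in stimulated Th2 cells, and it kept its sign under the 9 alternatives of normalization and of leaving out a mouse. The list score, the median over the genes of each mouse mean after centring, was 0.091, 0.13 and 0.038 in WT and -0.094, -0.035 and -0.043 in BAF180-deficient mice, so the genotypes were apart. The score over all genes did not overlap either, at -0.0029, -0.0089 and -0.0064 in WT and 0.00059, -0.00115 and -0.0023 in BAF180-deficient mice. A lack of overlap also held for 9.86% of probes, so it is a description and not a test.

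Dapl1 had the largest difference among them, -0.53 ± 0.13 (SE), but was detected on only 9 WT and 2 BAF180-deficient arrays. Bach2, a repressor that restrains effector programs, had mouse means of 10.36, 10.26 and 9.85 in WT and of 9.78, 9.91 and 9.53 in BAF180-deficient mice, a difference of -0.42 ± 0.15 (SE; adjusted p = 0.843, paired 0.193, limma). Within each letter the BAF180-deficient mouse lay below the WT mouse, whereas across letters the genotypes overlapped. Tcf7, the transcription factor TCF-1, differed by -0.41 ± 0.13 (SE), with -0.76 and -0.75 in resting and stimulated Th2 cells and 0.068 in resting Naïve cells, so that it did not share a sign in all states. Gramd3 differed by -0.38.

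Genes of regulatory T cells, which restrain immune responses, went mostly the other way. Of 23 listed, 19 passed the filter, 15 were higher on average, 8 (42.1%) were higher in every state and 1 was lower in every state. With an unadjusted p below 0.05, 5 (26.3%) were higher and none lower, and 3 were called as higher in the paired comparison. The median was 0.14 and lay between 0.11 and 0.26 over the 9 alternatives, the latter without WT mouse C. By state it was 0.18 for resting Naïve, 0.31 for stimulated Naïve, 0.20 for resting Th2 and 0.076 for stimulated Th2 cells. The list scores of the mice were -0.18, -0.12 and -0.063 in WT and 0.25, -0.016 and 0.12 in BAF180-deficient mice, again apart, which is a description here too. Foxp3 is described above. Klrg1, a receptor of differentiated T cells, was higher by 0.46, with 1.14 in resting Naïve cells, and was detected on only 3 WT and 7 BAF180-deficient arrays. Tnfrsf4 (OX40) lay against the list in every state, at -0.54 ± 0.60 (SE), an error larger than the difference.

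Il10, the anti-inflammatory cytokine counted in this list and in that of the cytokines, was higher in BAF180-deficient cells by 0.84 ± 0.34 (SE; adjusted p = 0.909, paired 0.169, limma). The mouse means were 8.45, 8.36 and 7.76 in WT mice A, B and C and 9.56, 9.28 and 8.24 in BAF180-deficient mice A, B and C. Mouse C was the lowest of each genotype, and the BAF180-deficient mouse was above the WT mouse in all 3 letters, so the groups overlapped only across letters. In resting Th2 cells the arrays gave 7.73, 7.79 and 6.84 in WT and 9.55, 9.29 and 8.60 in BAF180-deficient cells, a difference of 1.69 without overlap. In stimulated Th2 cells they gave 11.53, 10.95 and 11.77 against 12.32, 12.12 and 12.28, also without overlap. In resting Naïve cells the difference was 0.11. Without BAF180-deficient mouse C the average difference was 1.23.

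The list of T helper cytokines and chemokines, which holds Il10, went less clearly one way. Of 29 listed, 26 passed the filter, 15 were higher on average, 8 (30.8%) were higher in every state and 1 was lower in every state. With an unadjusted p below 0.05, 6 (23.1%) were higher and none lower, and in the paired comparison 7 were called as higher and 1 as lower. The median of the list was 0.15, but it was -0.020 without WT mouse C, and the list scores of the genotypes overlapped. Il17f, a cytokine of Th17 cells, was higher by 0.79 ± 0.20 (SE; adjusted p = 0.593, paired 0.259, limma), with mouse means of 5.82, 5.69 and 6.20 in WT and of 7.02, 6.73 and 6.32 in BAF180-deficient mice. It was not detected on any resting Th2 array, so that no difference can be read in that state. Il17a was higher by 0.49, and Ccl3 by 0.44 as given above. The Th2 markers themselves, Gata3 and the Th2 cytokines and receptors, had a median of 0.085, which turned to -0.015 without BAF180-deficient mouse A.

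**Figure D3:**
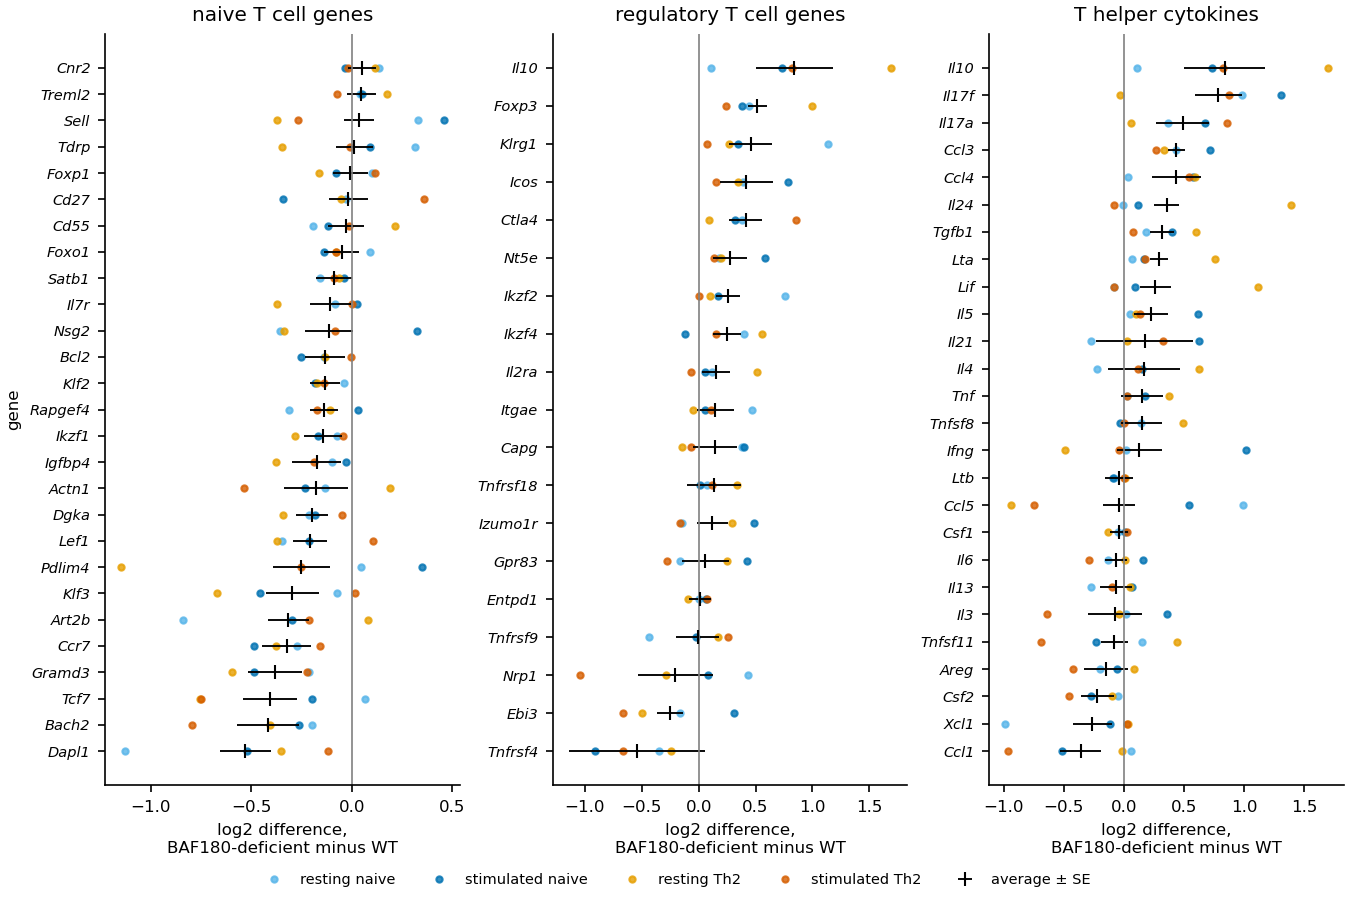
Average difference (black, ± SE) and the difference in each state (coloured points) for every measured gene of the naive T cell, regulatory T cell and T helper cytokine lists, as BAF180-deficient minus WT log2 intensity. Most naive T cell genes lie left of 0 and most regulatory T cell genes right of it, with Il10 at 0.84 on top of both lists that hold it.

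Inhibitors of cyclin-dependent kinases, which hold back the cell cycle, were higher for 6 of the 7 genes measured, and 2 of them, Cdkn2a and Cdkn2b, had an unadjusted p below 0.05. Cdkn2a, which encodes p16 and p19ARF, had mouse means of 5.32, 5.16 and 5.04 in WT and of 5.72, 5.49 and 5.50 in BAF180-deficient mice, a difference of 0.40 ± 0.10 (SE; adjusted p = 0.612, paired 0.175, limma). It was 0.83 in resting Th2 cells, and the gene was not detected on any resting Naïve array. Cdkn1a (p21) was higher by 0.50 ± 0.31 (SE), with 8.39, 8.27 and 7.49 in WT and 8.88, 8.82 and 7.94 in BAF180-deficient mice (adjusted p = 1, paired 0.146, limma). As for Il10, each BAF180-deficient mouse was above the WT mouse of its letter while mouse C was the lowest of each genotype. In stimulated Th2 cells Cdkn1a differed by -0.012. The median of the list, 0.071, turned to -0.020 without BAF180-deficient mouse A. The 27 measured p53 targets did not lean this way, with 12 higher, 15 lower and a median of -0.023 that ranged from -0.062 to 0.012 over the 9 alternatives. Of these, Phlda3 was higher by 0.36, Cd80 by 0.35 and Bax by 0.30.

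Genes of memory and effector T cells were higher for 22 of 33, with 6 (18.2%) higher in every state and a median of 0.11 that was 0.047 without WT mouse B. The states did not share the sign of the median, which was 0.29 in resting and 0.15 in stimulated Naïve cells but -0.055 in resting and -0.018 in stimulated Th2 cells. Lgals1 (galectin-1) was higher by 0.61 ± 0.18 (SE; adjusted p = 0.7, paired 0.212, limma), by 0.98 and 0.94 in the Naïve states and by 0.23 and 0.30 in the Th2 states. Lgals3 was higher by 0.65 and Nkg7, a protein of cytotoxic granules, by 0.57 with the same sign in every state. Il18r1, the IL-18 receptor, was higher by 0.43 and was not detected on any stimulated Th2 array.

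Interferon response genes, which cells switch on against viruses, were lower on average for 42 of the 46 measured of 57 listed. Of the 46, 11 (23.9%) were lower in every state and 9 (19.6%) were lower with an unadjusted p below 0.05, while the paired comparison called 8 as lower and 1 as higher. The median was -0.15 and was uneven over the states, a difference that was not tested for the list. It was -0.33 in resting and -0.29 in stimulated Th2 cells, and -0.019 in resting and 0.036 in stimulated Naïve cells. Over the 9 alternatives the median of the average lay between -0.23 and -0.074, the latter with Z-scores, which have another scale. The list scores were 0.17, 0.21 and -0.060 in WT and -0.12, -0.0095 and -0.079 in BAF180-deficient mice, so that WT mouse C lay among the BAF180-deficient mice. Eif2ak2 (PKR), the kinase that senses double-stranded RNA, had mouse means of 7.48, 7.30 and 7.18 in WT and of 6.50, 6.66 and 6.90 in BAF180-deficient mice, a difference of -0.63 ± 0.12 (SE; adjusted p = 0.444, paired 0.202, limma) that was -1.39 in stimulated Th2 and -0.054 in stimulated Naïve cells. Usp18 and Isg15, a protease and the ubiquitin-like protein it removes, differed by -0.49 and -0.47 on average, but were higher by 0.43 and 0.32 in stimulated Naïve cells. In resting Th2 cells the Isg15 arrays gave 7.26, 6.99 and 4.61 in WT and 5.32, 5.77 and 4.83 in BAF180-deficient cells. The Usp18 arrays gave 7.52, 7.64 and 5.49 against 5.83, 6.55 and 5.65. WT mice A and B were above all BAF180-deficient mice there, and WT mouse C below them. Bst2 (tetherin) lay against the list at 0.47 ± 0.12 (SE), with 5.90, 6.23 and 5.95 in WT and 6.59, 6.55 and 6.34 in BAF180-deficient mice.

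The promoters of these genes were read because interferon acts through a short element, the interferon-stimulated response element. The letters GAAANNGAAA, on either strand, were found in 18 of the 34 list promoters that the RefSeq table holds (52.9%), in 270 of the 8259 promoters of measured genes (3.27%) and in 943 of all 27025 (3.49%), counting 250 bases before to 50 after the start of each gene in GRCm38.p6. The list was chosen as genes of the interferon response, so its higher share does not bear on the genotypes. Of the 4 list genes named above, Isg15 and Bst2 had the letters before the start, Eif2ak2 had them only after it, and no promoter was used for Usp18. The windows below run 5′ to 3′ on the strand of the gene, with the last match before the start in capitals. In both windows the letters also match just upstream, overlapping the capitals, and that part is left in lower case. The window of Isg15 is chr4:156200850-156200909 (minus strand), with the marked match 66 bases before the start. That of Bst2 is chr8:71537562-71537621 (minus strand), with the marked match 124 bases before it:
Isg15: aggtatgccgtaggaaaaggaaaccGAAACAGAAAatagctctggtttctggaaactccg
Bst2: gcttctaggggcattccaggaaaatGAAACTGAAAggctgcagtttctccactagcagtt
Both promoters held the element, although Isg15 was lower and Bst2 higher on average.

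Genes of the respiratory chain were slightly higher. Of 78 measured, 60 (76.9%) were higher against 51.9% of all genes, 20 (25.6%) in every state, and the median was 0.095. It was 0.20 in resting Naïve and -0.027 in stimulated Th2 cells. Mitochondrial ribosomal proteins were higher for 52 of 72, with 16 (22.2%) higher in every state and a median of 0.065. Without BAF180-deficient mouse C the medians of these lists were 0.054 and 0.015. Sdhc, a subunit of succinate dehydrogenase, was higher by 0.41 ± 0.092 (SE), and Mrpl42, of the large mitochondrial ribosomal subunit, by 0.44 ± 0.096 (SE), with 8.66, 8.72 and 8.80 in WT and 9.22, 8.99 and 9.28 in BAF180-deficient mice. Cox7a2l, which helps to build respiratory supercomplexes, lay the other way at -0.30.

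ATF4 and amino acid genes were lower for 18 of 26, with 6 (23.1%) lower in every state, and a median of -0.074 that was -0.12 without WT mouse C. By state the median was -0.010 in resting Naïve, -0.15 in stimulated Naïve, 0.014 in resting Th2 and -0.26 in stimulated Th2 cells, so the states did not share its sign. Atf5 was lower by 0.67 ± 0.17 (SE; adjusted p = 0.605, paired 0.175, limma), with 7.25, 7.16 and 6.59 in WT and 6.30, 6.46 and 6.25 in BAF180-deficient mice. Slc7a3, an amino acid transporter, differed by -0.73, with -1.38 in stimulated Naïve and -1.56 in stimulated Th2 cells against -0.082 in resting Th2 cells, and was not detected in resting Naïve cells. Histone genes were lower for 36 of 54, with a median of -0.046 that ranged from -0.011 without WT mouse C to -0.093 without BAF180-deficient mouse C. The median was 0.028 and 0.025 in resting and stimulated Naïve cells and -0.12 and -0.18 in resting and stimulated Th2 cells. H2ax, the histone variant phosphorylated at DNA breaks, lay the other way at 0.47 ± 0.11 (SE) with the same sign in every state. Cytosolic ribosomal proteins, DNA replication, Polycomb, proteasome and zinc finger genes had medians between -0.025 and 0.035. That of DNA replication, 0.035, was -0.062 without BAF180-deficient mouse C.

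**Figure D4:**
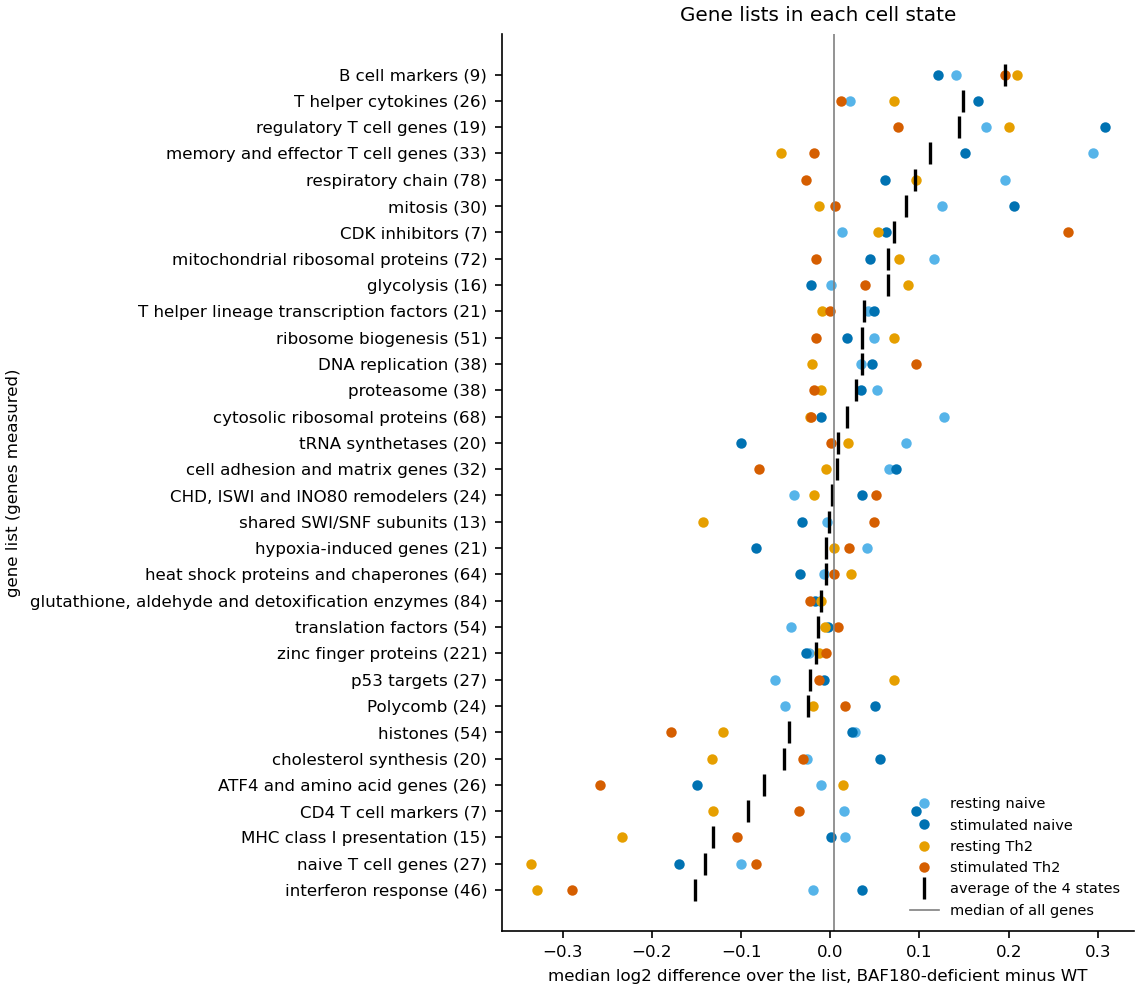
Median log2 difference (BAF180-deficient minus WT) of each gene list in each state (coloured points) and for the average difference of each gene (black bars), with the median of all genes as a vertical line. The naive T cell list stays left of the line and the regulatory T cell list right of it in all 4 states, while the interferon list has 1 state and the memory list 2 states on the side opposite to the average.

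Markers of other cells that the purification could have left behind were read beside these lists. All 9 measured B cell markers were higher on average in BAF180-deficient cells, with a median of 0.20 that was 0.085 without BAF180-deficient mouse C, 0.0031 without WT mouse B and 0.39 without WT mouse C. The list scores were -0.052, -0.46 and 0.21 in WT and -0.072, -0.23 and 0.62 in BAF180-deficient mice, highest in mouse C of each genotype. Of the 10 markers 3 were detected on all arrays, Pax5 on none and Ms4a1 (CD20) on 1, and their summed normalized intensity was between 584 and 18000 on WT and between 693 and 23000 on BAF180-deficient arrays. No B cell marker had an unadjusted p below 0.05. Their part in the other results was not tested.

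Cd8b1, a CD8 T cell marker, had mouse means of 7.80, 7.80 and 8.50 in WT and of 6.96, 7.09 and 8.11 in BAF180-deficient mice, a difference of -0.65 ± 0.32 (SE; adjusted p = 0.978, paired 0.175, limma). Mouse C was the highest of each genotype, and without BAF180-deficient mouse C the difference was -1.01. Cd8a was not detected on any array. The summed intensity of both CD8 markers was between 183 and 519 on WT and between 105 and 508 on BAF180-deficient arrays. Markers of myeloid cells, neutrophils and red cells had medians of 0.0086, 0.025 and 0.053, whose signs changed in 6, 3 and 2 of the 9 alternatives, and the 2 measured NK cell markers of -0.18, with Ncr1 not detected on any array. Summed intensities of myeloid markers were between 120 and 152 on Th2 arrays and between 1570 and 4780 on resting Naïve arrays. Whether these cells add to the differences of the Naïve states was not tested.

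**Figure D5:**
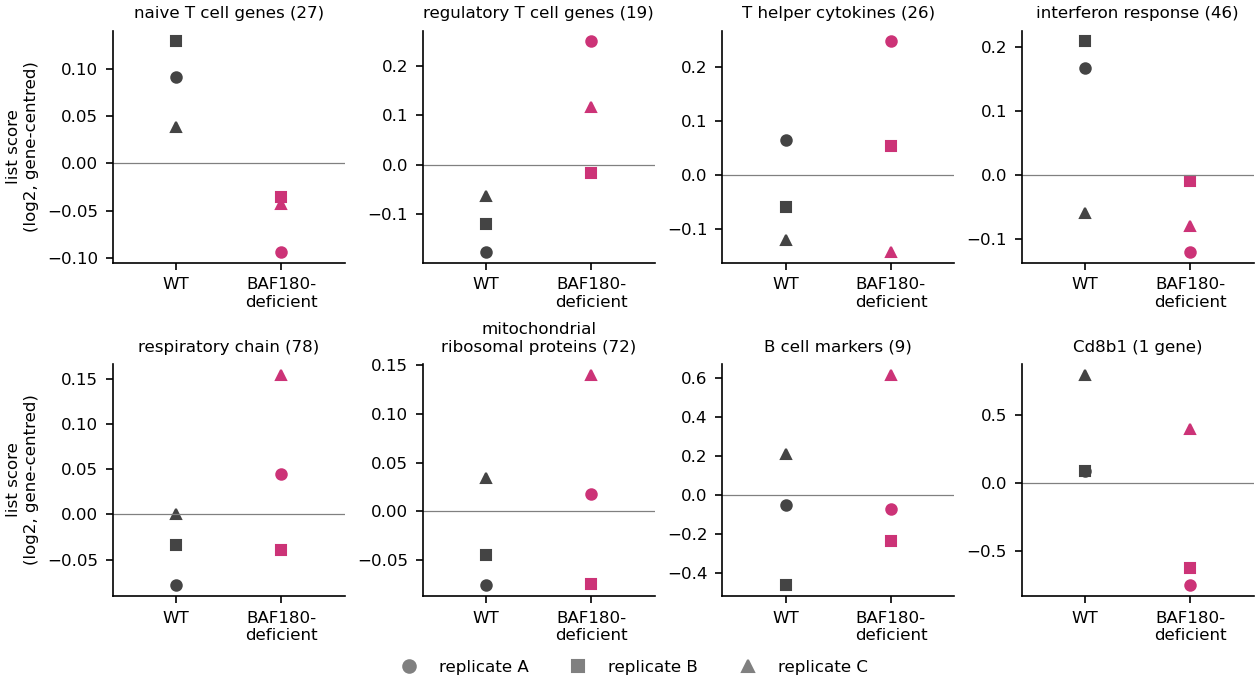
List score of each mouse (median over the genes of the gene-centred log2 mouse mean, 3 WT in grey and 3 BAF180-deficient in magenta, replicate letter as the symbol) for 7 gene lists and for the single gene Cd8b1. The genotypes are apart for naive and regulatory T cell genes, overlap in the other 6 panels, and BAF180-deficient mouse C is the highest for B cell markers at 0.62.

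The genes next to Pbrm1 on chromosome 14 were read since they travel with the engineered allele. Among the 10 nearest measured genes on each side, by their order on the chromosome, 13 were higher and 7 lower in BAF180-deficient cells, with a median of 0.040. None of the 20 had an unadjusted p below 0.05, and 6 had the same sign in all 4 states. Nisch, which encodes the imidazoline receptor protein nischarin, was the only one called in the paired comparison, at -0.26 with an adjusted p of 0.271 (limma with the letter as a block). It is named because it makes up that count.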

How the data were processed

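The authors deposited, for each of 25697 probes and 24 arrays, the average bead intensity from GenomeStudio (version 1.6.0, per the labels), neither normalized nor background-subtracted. A detection p-value accompanies every intensity they deposited. Intensities were background-corrected, log2 transformed and quantile normalized (neqc, offset 16, limma 3.58.1 in R 4.3.3). A probe was kept if its detection p was 0.02 or lower on 1 array or more. This keeps the detection part of the authors' filter. Their Z-score normalization was an alternative. Current symbols were found through Entrez IDs for 16938 probes, through RefSeq accessions for 7420, and through symbols or synonyms for 465 and 552, leaving 322 with the table's symbol. The array number limits the precision. Replicate arrays correlated at 0.949 to 0.989, and none shared more than 0.973% of its intensities with another, which shows no copies.

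The 4 arrays of a mouse were averaged, and 3 against 3 mouse means were fitted with lmFit and eBayes (4 residual degrees of freedom), with Benjamini-Hochberg adjustment over the kept probes. Z-ratio and criteria follow the study's methods, with p and false discovery rate taken from limma. Genes are given by their brightest kept probe. State dependence was tested as a genotype by state interaction with the mouse as a fixed effect. The code was tested on data with known answers. Same-letter WT and BAF180-deficient mice deviated together from their group means (correlations 0.256 for A, 0.276 for B and 0.559 for C), so the letters were read as pairs and the fit with the letter as a block is given as the paired comparison. No label gives this pairing, which was read from the same arrays, and pair C joins mice that differ in Xist. The paired fit has only 2 residual degrees of freedom, so its p-values are less firm than they look. Arrays of one letter and genotype in different states correlated at a median of 0.151 (36 pairs), and arrays of other letters at -0.0777 (72 pairs).

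Named genes were Pbrm1, 10 genes per direction by the rule in the text, the SWI/SNF subunits and up to 4 members of each list with the largest difference. Members and lists were chosen with earlier results of these data known. Alternatives covered normalization, filter, units, weights, each mouse and each state.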

Additional observations from a re-analysis of the deposited data

How the results depend on the processing

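The number of genes called in the average, 1, depended on how the mice were compared. It was 437 with the replicate letter as a block, 278 with the 24 arrays as units and 192 with the mouse as a random block (correlation 0.0412). Array weights gave 73 and an intensity trend of the variance 6. No detection filter gave 16, detection on all 3 arrays of a group 9, on all 24 arrays 13, and the brightest probe of each gene 9. Leaving out 1 mouse gave 1 to 54, with 54 without WT mouse C, 20 without BAF180-deficient mouse C and 1 without any other. Leaving out the resting Naïve, stimulated Naïve, resting Th2 or stimulated Th2 state gave 2, 7, 2 and 2. The Th2 states alone gave 2 and the Naïve states alone 0 by the same limma fit, with 657 probes at an unadjusted p below 0.05. Without the false discovery rate the criteria gave 615. In settings chosen after seeing the data, leaving out replicates C of both genotypes gave 50 without and 210 with the block. The cause of these changes was not tested. Z-scores, neqc within each state, no background correction and an adjusted p below 0.05 alone gave 1. The count of 6 probes with arrays apart in all states was 5 with Z-scores and 6 in 3 other settings. Of the 380 values of the 20 leading genes under 19 alternatives, 117 were called where the average was not. Their signs carry no weight here, since the genes were chosen for one sign and for mice that did not overlap. The number of mice, 3 per genotype, limits what could be called.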
